A study of Mus musculus with 12 samples.

Results

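Cytoplasmic and nuclear RNA is removed by a small number of enzyme complexes, and 35 genes that encode them were followed here in mouse fibroblasts with activated MycER, induced YAP S127A, or both. They were chosen by gene symbol, as 9 subunits of the RNA exosome core, 4 exosome nucleases and DIS3 family members, 9 subunits of the CCR4-NOT deadenylase, 7 genes of decapping and 5′ to 3′ decay, and 6 genes of nonsense-mediated decay. All 35 were among the 21671 rows of the deposited table, and all 35 were among the 12363 genes that could be tested. The cells were 3T9 MycER;YAP cells, that is, immortalized embryonic fibroblasts of the 3T9MycER genotype, in which a fusion of Myc to the hormone-binding part of the estrogen receptor is always made but stays inactive until 4-hydroxytamoxifen (OHT) is added. The cells further hold a hygromycin-resistant pSlik vector, from which doxycycline (dox) induces YAP S127A, a form of YAP that escapes phosphorylation at the serine through which the Hippo pathway keeps it out of the nucleus. All 4 groups carry both constructs. The labels give a growth medium with 10% tetracycline-free serum, and the study describes the cells of this experiment as starved of serum and highly confluent when treated. There were 3 libraries each of mock-treated cells, cells given 400 nM OHT, cells given 2 µg/ml dox, and cells given both (OHT+dox). The labels do not say whether the libraries of a group came from separate cultures, so the p-values measure the spread between libraries, which may be technical. Cells without the vector that received dox are not analysed here, so YAP S127A and doxycycline itself cannot be told apart in any dox comparison.

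Most mRNAs are degraded after deadenylases, chiefly CCR4-NOT, have shortened the poly(A) tail. The body of the transcript is then digested either from its 3′ end by the exosome, or from its 5′ end by Xrn1 once Dcp2 has removed the cap. Nonsense-mediated decay feeds transcripts with premature stop codons into the same enzymes. The exosome has a further, nuclear life: with Exosc10 and Dis3 it trims the precursors of ribosomal RNA, small nuclear RNAs and small nucleolar RNAs and clears faulty or unstable nuclear transcripts.

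The deposited table holds summaries and no value per library, so each value below is the mean normalized count of a group with a standard error that rests on the dispersion of the gene, and read totals are unknown. The mean normalized counts added up to 8298685, 8195054 and 8183531 in the comparisons of OHT, dox and OHT+dox with mock. Log2 fold changes come from these group means, and a gene was called at an adjusted p under 0.05 (two-sided Wald test, Benjamini-Hochberg adjustment over all 12363 genes). An alternative in which all standard errors were multiplied by 0.696, the spread of the z-values of the interaction described at the end, calls more genes and is named the permissive setting below. As a check of the labels, Ncl, the nucleolin gene and a Myc target, rose with OHT (log2 fold change 0.94, standard error 0.10), and Ctgf, a canonical YAP target, rose with dox (0.64, standard error 0.09). Ncl also rose with dox (0.45, standard error 0.10), and Ctgf fell with OHT (-0.32, standard error 0.09). Of 10 fibroblast markers, 9 had mean normalized counts of at least 10. The median marker lay at percentile 98.5 of all genes of the deposited table, by counts not scaled to length. Of the markers of other cells, 6 of 8 macrophage, 7 of 7 epithelial, 6 of 6 endothelial, 5 of 6 muscle and 6 of 6 adipocyte genes had means under 10. Because these are bulk samples, fewer cells of a type and less RNA per cell cannot be told apart. All values are relative to the rest of the library. Apart from this check of markers, genes are not compared with each other by level because counts are not scaled to length.

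Promoter sequence is shown for members on either side of the main contrast, subunits of the exosome and of CCR4-NOT, because Myc with its partner Max binds the E-box CACGTG, and TEAD, the DNA-binding partner of YAP, binds a core of GGAATG. RefSeq promoter windows (GRCm38.p6, 250 bases before to 50 after a start) were found for 30 of the 35 members. The E-box reads the same on both strands, GGAATG was looked for on both (its other strand reads CATTCC), and neither motif overlaps the other. An E-box stood in the windows of Exosc5, Cnot4 and Xrn2, and a TEAD core in those of Exosc2, Dis3 and Cnot8. The matched motif is in capitals in the stretches below, each read 5′ to 3′ on the strand of its gene and lying before the start: the E-box of Exosc5 (chr7:25659085-25659138, plus strand), the E-box of Cnot4 (chr6:35133891-35133944, minus strand) and both TEAD cores of Exosc2 (chr2:31670526-31670579 and chr2:31670632-31670685, plus strand).
Exosc5 E-box: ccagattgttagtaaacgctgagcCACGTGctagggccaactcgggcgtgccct
Cnot4 E-box: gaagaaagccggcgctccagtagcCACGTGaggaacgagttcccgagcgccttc
Exosc2 TEAD core, upstream: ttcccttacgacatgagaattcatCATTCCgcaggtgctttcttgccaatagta
Exosc2 TEAD core, downstream: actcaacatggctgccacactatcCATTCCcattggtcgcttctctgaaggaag
The E-box of Exosc5 began 44 bases before the start and that of Cnot4 183 bases before it, and the TEAD cores of Exosc2 began 165 and 59 bases before it. Among the members with a window, 3 of 30 (10.0%) held an E-box and 3 of 30 a TEAD core. Also counted by gene, the shares were 8.09% and 16.6% of all 27025 genes with a window. They were 11.7% and 14.5% of the 9249 tested genes that have a window. Of the members with an E-box, Exosc5 rose with OHT and with both, Xrn2 rose with both and Cnot4 was not called at the standard errors used here. Of those with a TEAD core, Exosc2 and Dis3 rose in all 3 comparisons with mock and Cnot8 was not called. Exosc1 and Exosc6, which also rose in all 3, held neither motif in this window.

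With both treatments, 13 of the 35 genes rose and 2 fell, and 10 of the 13 belonged to the exosome. Over all genes tested, 20.6% rose and 19.0% fell in this comparison. OHT alone raised 7 members and lowered none, beside 12.6% of all genes that rose and 8.87% that fell, and 1 member had a lower mean at an unadjusted p under 0.05 (Wald test). Dox alone raised 4 and lowered 1, beside 6.21% and 4.51% of all genes. In all, 15 members were called in at least 1 comparison with mock, 20 in none, and 4 (Exosc1, Exosc2, Exosc6 and Dis3) rose in all 3. The 3 comparisons share their mock libraries and are therefore not independent of each other.

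**Figure D1:**
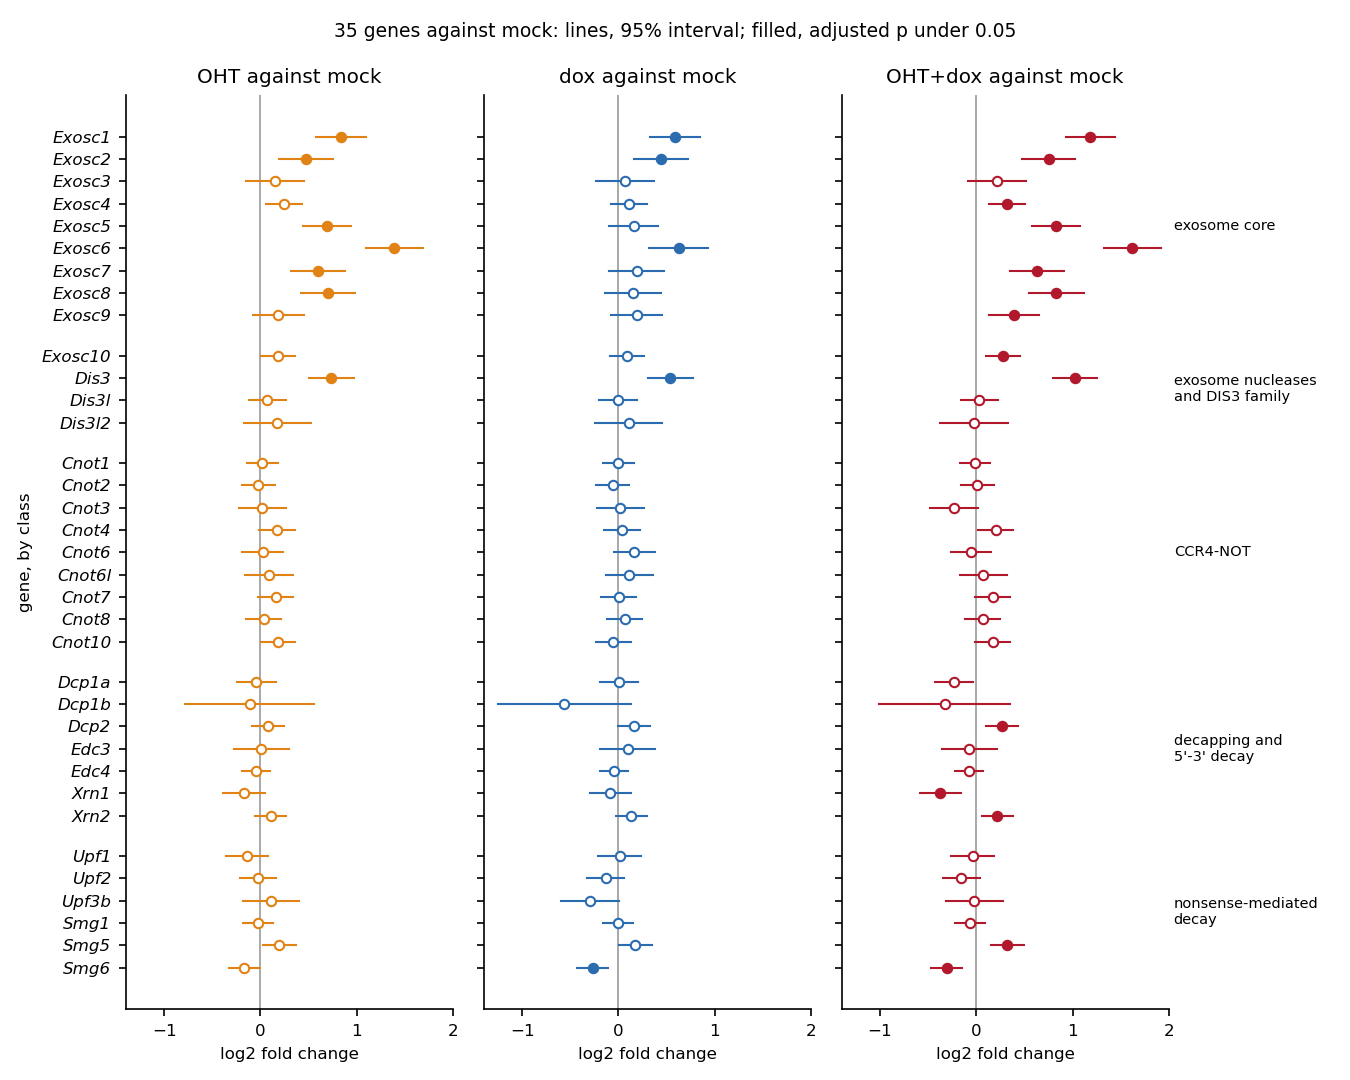
Log2 fold change against mock (x axes) of the 35 genes, by class (rows), with OHT, dox and both. Lines are 95% intervals and filled points passed at an adjusted p under 0.05; the filled points gather in the exosome core, where 6, 3 and 8 of 9 genes rose, and none lies in CCR4-NOT.

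The core of the exosome moved in 1 direction. Of its 9 subunits, 6 were higher after OHT, 3 after dox and 8 after both, none was called lower, and none had a lower mean at an unadjusted p under 0.05 (Wald test). The median log2 fold change of the core stood at 0.60 for OHT, 0.19 for dox and 0.75 for both, where the median of all genes tested was -0.01 in each. The mean was highest with OHT+dox in 9 of 9 subunits. In 8 of 9 the means stood in the order mock, dox, OHT, OHT+dox, although neighbouring groups in this order did not all differ beyond their error.

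The cap of the exosome, formed by Exosc1, Exosc2 and Exosc3, binds RNA and leads it into the central channel. Exosc1 stood at 231 ± 15.6 normalized counts in mock, 347 ± 22.2 with dox, 413 ± 25.8 with OHT and 526 ± 32.1 with both (mean ± standard error, 3 libraries each). This amounts to log2 fold changes of 0.59 with dox (standard error 0.13, adjusted p = 0.00039), 0.84 with OHT (0.13, adjusted p = 1.25e-08) and 1.18 with both (0.13, adjusted p = 1.14e-17). The level with both was 2.27 times that of mock. Exosc2, at 223 ± 16.0 in mock, 303 ± 20.8 with dox, 309.9 ± 21.3 with OHT and 375 ± 25.2 with both, also rose with each treatment. Its single treatments lay within each other's error (OHT against dox 0.03, 95% interval -0.24 to 0.31). The third cap subunit, Exosc3, was the only core subunit that was not called in any comparison with mock. Its means ran from 198 ± 15.1 in mock to 229 ± 17.2 with both, a log2 fold change of 0.21 with a 95% interval of -0.09 to 0.52.

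The ring below the cap consists of Exosc4 to Exosc9, relatives of bacterial RNase PH that have lost their own catalysis in mammals and hold the channel together. Exosc6 changed most among the 35 genes, and each of its treated groups lay above mock by more than the standard errors. Between OHT+dox and OHT, Exosc6 differed by 0.23 on the log2 scale (standard error 0.14, adjusted p = 0.444) and was not called. It had 137 ± 10.9 normalized counts in mock, 212 ± 15.6 with dox, 359.7 ± 24.9 with OHT and 421 ± 28.7 with both. Against mock it was higher by 0.63 on the log2 scale in the dox group (standard error 0.16, adjusted p = 0.00148), by 1.39 in the OHT group (0.15, adjusted p = 8.23e-18) and by 1.62 in the OHT+dox group (0.15, adjusted p = 8.99e-25), the last a 3.07-fold level.

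Exosc5, Exosc7 and Exosc8 shared another pattern, a rise with OHT that was also seen with OHT+dox, and no call with dox. Exosc5 had 291 ± 18.6 normalized counts in mock and 325 ± 20.5 with dox, against 469 ± 28.4 with OHT and 517 ± 31.0 with both. Exosc8 had 177 ± 13.0 and 197 ± 14.3 without OHT, and 288 ± 19.7 and 315 ± 21.4 with it. Exosc7 had 194 ± 13.9 and 222 ± 15.6 without OHT, and 293 ± 19.8 and 300.2 ± 20.2 with it. In each of these 3 genes the groups with OHT lay above the groups without it by more than their standard errors. Their log2 fold changes with OHT were 0.69 for Exosc5 (standard error 0.13, adjusted p = 1.79e-06), 0.60 for Exosc7 (0.14, adjusted p = 0.000364) and 0.70 for Exosc8 (0.15, adjusted p = 2.67e-05). With both they were 0.83 for Exosc5 (0.13, adjusted p = 1.03e-09), 0.63 for Exosc7 (0.14, adjusted p = 6.06e-05) and 0.83 for Exosc8 (0.14, adjusted p = 1.03e-07).

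Exosc4 and Exosc9 rose only slightly, and at these standard errors they passed with both treatments but with neither alone. Exosc4 went from 729 ± 34.4 normalized counts in mock to 789 ± 37.0 with dox, 862 ± 40.1 with OHT and 908 ± 42.0 with both, which is 0.32 on the log2 scale for the last group (standard error 0.10, adjusted p = 0.00347). With OHT alone it stood at 0.24, just short of the threshold (adjusted p = 0.0525), and it passed under the permissive setting and when only genes with means of at least 50 in all groups were tested. Exosc9 went from 264 ± 17.5 in mock to 301 ± 19.6 with each single treatment and 347 ± 22.2 with both (0.39, standard error 0.13, adjusted p = 0.0103). A pass with both and not with one treatment does not show a difference between them: with OHT+dox against OHT, Exosc4 was at 0.08 and Exosc9 at 0.21, and neither was called.

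**Figure D2:**
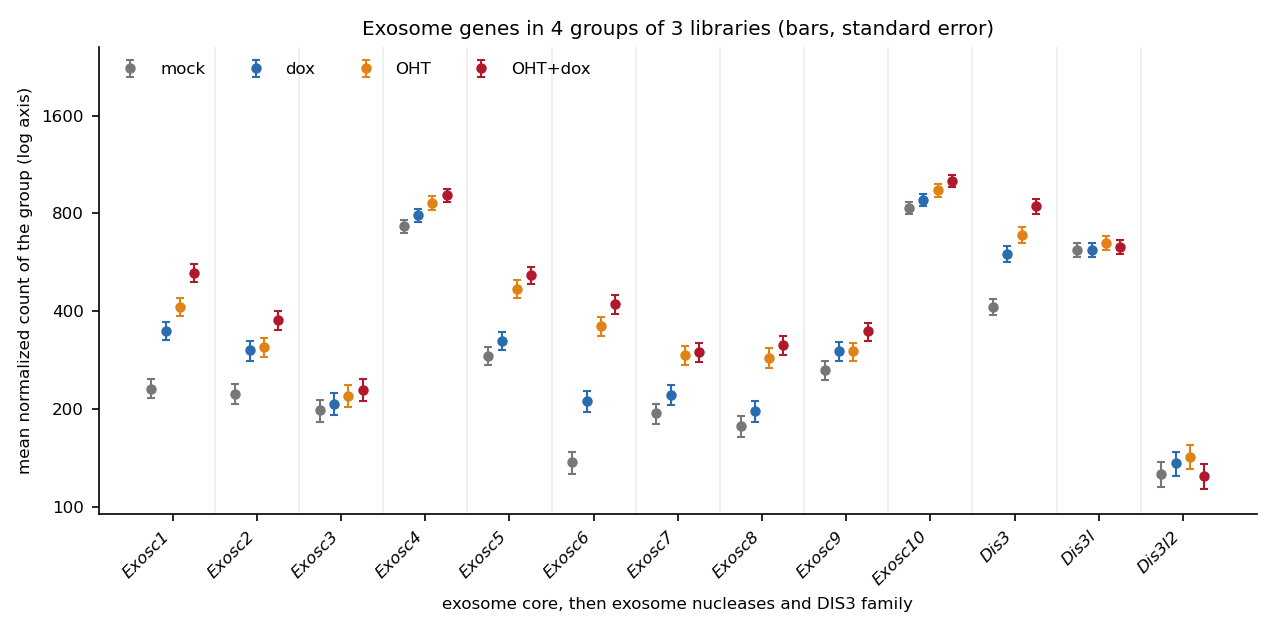
Mean normalized count (y axis, log scale) of the 9 exosome core genes and the 4 exosome nucleases and DIS3 family genes (x axis) in mock, dox, OHT and OHT+dox, 3 libraries each. Bars are standard errors; Exosc6 spans 137 to 421 and Dis3 413 to 841, while Dis3l stays between 617 and 649.6.

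The core itself digests no RNA, and the nucleases that do so differed from each other. Dis3, the processive exonuclease and endonuclease of the nuclear exosome, had 413 ± 24.5 normalized counts in mock, 601 ± 34.4 with dox, 688 ± 38.9 with OHT and 841 ± 46.9 with both. Each treated group lay above mock by several standard errors. On the log2 scale it was 0.54 higher after dox (standard error 0.12, adjusted p = 0.000212), 0.74 after OHT (0.12, adjusted p = 2.15e-08) and 1.03 after both (0.12, adjusted p = 1.26e-16). Dis3l, its cytoplasmic paralog, stayed between 617 ± 29.9 and 649.6 ± 31.3 in the 4 groups. With both treatments Dis3l was at 0.03 (95% interval -0.16 to 0.22, adjusted p = 0.837), an interval that ends below that of Dis3 (0.80 to 1.26). Dis3l2, which works without the exosome on uridylated RNAs, was at -0.03 with both (standard error 0.18). Exosc10, the distributive nuclease of the nuclear exosome, passed against mock with both treatments (under the permissive setting also with OHT), from 831 ± 36.5 in mock to 881 ± 38.5 with dox, 942 ± 40.9 with OHT and 1006 ± 43.4 with both (0.28, standard error 0.09, adjusted p = 0.00675).

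Libraries did not keep the strand, so reads in the overlap of a member with a neighbouring gene cannot be assigned to one or the other. Of the called members, Exosc4, Exosc8, Exosc9, Dis3 and Smg6 overlap a protein-coding gene in RefSeq. The stretch shared by Exosc9 and Ccna2, the cyclin A2 gene, is 863 bases long, and Ccna2 itself rose with OHT (0.57, standard error 0.17) and with both (0.85, standard error 0.17). The part of Ccna2 reads in the small rise of Exosc9 was not tested. The neighbour of Dis3, Pibf1, was at 0.18 (standard error 0.13) with both and not called, and the neighbour of Exosc4, Oplah, was at -0.25 (standard error 0.26). Supt20, which shares 85 bases with Exosc8, was lower with both (-0.23, standard error 0.10), opposite to Exosc8. Neither neighbour of Smg6, Srr or Hic1, was called.

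None of the 9 CCR4-NOT genes was called in any of the 6 comparisons at the standard errors used here. Of all genes, 20.6% rose and 19.0% fell with both, 12.6% and 8.87% with OHT, and 6.21% and 4.51% with dox. In OHT+dox against OHT the shares were 2.61% and 2.15%, so the lack of calls there and with dox is near the background. The log2 fold changes of the 9 genes stayed close to 0. The medians were 0.03 (OHT), 0.02 (dox) and 0.07 (OHT+dox), and the values with both ran from -0.23 to 0.20. At an unadjusted p under 0.05 (Wald test), 1 gene had a higher mean in the OHT group, none in the dox group and 1 in the OHT+dox group than in mock, and none had a lower mean. Over the 9 genes, the 95% intervals of the response to both lay between -0.48 and 0.39, so larger changes of any single subunit were outside them. Under the permissive setting 4 of the 9 passed with both, namely Cnot4, Cnot7 and Cnot10 as higher and Cnot3 as lower. In that setting 3462 of all 12363 genes were higher and 3464 lower with both.

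The scaffold of the complex, Cnot1, had 3453 ± 136 normalized counts in mock, 3454 ± 136 with dox, 3500.4 ± 138 with OHT and 3414 ± 135 with both, which lie within 1 standard error of each other. Cnot2, which joins Cnot3 in the regulatory module at the end of the scaffold, ranged from 958 ± 40.7 to 1005 ± 42.5. Cnot3 was the farthest from 0, with 463 ± 28.3 in mock and 394 ± 24.5 with both (-0.23, standard error 0.13, adjusted p = 0.129). Cnot4, a ubiquitin ligase attached to the complex, was at 0.20 with both (standard error 0.09, adjusted p = 0.074), and Cnot10, a subunit at the other end of the scaffold, was at 0.17 (standard error 0.09, adjusted p = 0.135).

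The 4 catalytic subunits form pairs of paralogs. Cnot6 and Cnot6l are related to yeast Ccr4, and Cnot7 and Cnot8 to yeast Caf1. Cnot6 had 1503 ± 79.5 normalized counts in mock, 1686 ± 88.8 with dox, 1529 ± 80.8 with OHT and 1446 ± 76.6 with both, and was at -0.06 in the last comparison (standard error 0.11, adjusted p = 0.723). Cnot6l was at 0.07 (standard error 0.13, adjusted p = 0.686), Cnot7 at 0.17 (standard error 0.09, adjusted p = 0.133) and Cnot8 at 0.07 (standard error 0.09, adjusted p = 0.617). The 95% intervals of the catalytic subunits reached from -0.27 to 0.35 with both, and no paralog of either pair was called.

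Decapping and 5′ to 3′ decay held small changes in both directions, and at these standard errors they passed with OHT+dox only. Of the 7 genes, none was called with OHT or with dox, and none of them reached an unadjusted p under 0.05 there (Wald test), while 2 rose and 1 fell with both. These shares, 28.6% and 14.3%, are near the 20.6% and 19.0% of all genes. With OHT 12.6% of all genes rose and 8.87% fell, and with dox 6.21% and 4.51%. Dcp2 passed with dox too under the permissive setting. Dcp2, the decapping enzyme, rose from 1144 ± 47.5 normalized counts in mock through 1210.0 ± 50 with OHT and 1281 ± 52.7 with dox to 1378 ± 56.4 with both (0.27, standard error 0.08, adjusted p = 0.00518). Dcp1a, its activator, went the other way without passing, from 858 ± 42.7 in mock to 732 ± 36.9 with both (-0.23, standard error 0.10, adjusted p = 0.059). This value did pass with the standard error of that comparison itself, with group means scaled to equal sums, and under the permissive setting. The paralog Dcp1b was scarce, at 25.2 ± 4.51 to 37.2 ± 6.20 normalized counts, and its value with both (-0.33, 95% interval -1.01 to 0.35, adjusted p = 0.485) leaves both directions possible. The decapping enhancers Edc3 and Edc4 were each at -0.07 with both.

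The exonucleases that follow decapping or act on nuclear RNA from the 5′ end went in opposite directions. Xrn1, the cytoplasmic enzyme, had 921 ± 49.3 normalized counts in mock, 868 ± 46.7 with dox, 819 ± 44.2 with OHT and 712 ± 38.8 with both. With both it fell to 0.773 times its level in mock (log2 fold change -0.37, standard error 0.11, adjusted p = 0.00298). Xrn2, the nuclear enzyme of transcription termination, rose from 1275 ± 51.2 in mock through 1374 ± 54.9 with OHT and 1397 ± 55.7 with dox to 1485 ± 58.9 in the OHT+dox group (0.22, standard error 0.08, adjusted p = 0.0207). The 95% intervals of the pair, -0.59 to -0.16 for Xrn1 and 0.06 to 0.38 for Xrn2, do not overlap.

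Among the genes of nonsense-mediated decay, Smg5 rose and Smg6 fell with both treatments, and the rest were not called against mock at these standard errors. None was called with OHT (1 higher and 1 lower at an unadjusted p under 0.05, Wald test), where 12.6% of all genes rose and 8.87% fell. With both, 1 of 6 in each direction (16.7%) is near the background of all genes. Under the permissive setting Smg5 passed as higher with each single treatment, Smg6 as lower with OHT, and Upf2 as lower with both. Smg6, the endonuclease that cuts the targeted mRNA, was the only member that fell with dox (Upf3b passed as well under the permissive setting), from 1366 ± 54.4 normalized counts in mock to 1136 ± 46.0 (-0.27, standard error 0.08, adjusted p = 0.0162). With OHT it stood at 1215 ± 48.9, and with both at 1103 ± 44.7 (-0.31, standard error 0.08, adjusted p = 0.000823). Smg5, an adaptor that binds phosphorylated Upf1 and brings in deadenylation and decapping, had 1541 ± 66.3 in mock, 1741 ± 74.4 with dox, 1766 ± 75.4 with OHT and 1928 ± 82.0 with both (0.32, standard error 0.09, adjusted p = 0.000978). Upf2 was at -0.15 with both (standard error 0.10, adjusted p = 0.199). The helicase Upf1 was at -0.04, Upf3b, which links Upf2 to the exon junction complex, at -0.02, and Smg1, the kinase of Upf1, at -0.06, and their 95% intervals with both lay between -0.32 and 0.27.

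Of the 22 genes outside the exosome classes, none was called with OHT (all genes, 12.6% higher and 8.87% lower), 1 was lower with dox (all genes, 6.21% higher and 4.51% lower), and 3 were higher and 2 lower with both treatments. At an unadjusted p under 0.05 (Wald test), 2 of them had a higher and 1 a lower mean with OHT. Under the permissive setting 5 of them passed with OHT, Cnot4, Cnot7, Cnot10 and Smg5 as higher and Smg6 as lower. In that setting 2485 of all 12363 genes were higher and 2402 lower with OHT. The shares with both treatments, 13.6% higher and 9.09% lower, lie below the 20.6% and 19.0% of all genes.

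Compared directly, OHT gave higher levels than dox in 5 of the 35 genes and lower levels in none, where 8.63% of all genes were higher and 7.51% lower. None of the 35 had a lower mean with OHT at an unadjusted p under 0.05 (Wald test). Of the 5, 4 belonged to the ring of the exosome. Exosc6 was 0.76 higher on the log2 scale with OHT than with dox (standard error 0.15, adjusted p = 4.93e-06), Exosc5 0.53 (0.13, adjusted p = 0.000421), Exosc8 0.55 (0.14, adjusted p = 0.00185) and Exosc7 0.40 (0.14, adjusted p = 0.0291). The fifth was Upf3b, at 247 ± 18.1 normalized counts with OHT and 186 ± 14.2 with dox, which passed by a narrow margin (0.40, standard error 0.15, adjusted p = 0.0499) and did not pass with a prior standard deviation 10% smaller. The cap subunits Exosc1 (0.25, 95% interval -0.003 to 0.503) and Exosc2 and the nuclease Dis3 (0.19, 95% interval -0.03 to 0.42) were not called between these groups. Under the permissive setting Exosc1, Dis3, Cnot7 and Cnot10 passed here too.

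Adding OHT to dox raised 6 members and lowered 1, beside 12.6% and 8.86% of all genes. All 6 were exosome genes: Exosc6 (0.99, standard error 0.14), Exosc8 (0.68, 0.14), Exosc5 (0.67, 0.13), Exosc1 (0.60, 0.13), Dis3 (0.48, 0.12) and Exosc7 (0.44, 0.14). The member that fell was Xrn1, again close to the threshold (-0.29, standard error 0.11, adjusted p = 0.0451), and it did not pass with a prior standard deviation 10% smaller. The permissive setting gave 14 members higher and 4 lower, and those added include genes outside the exosome. Over all 12363 genes it gave 2579 higher and 2340 lower.

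Adding dox to OHT changed no member beyond the threshold, where 2.61% of all genes were higher and 2.15% lower (Wald test). At an unadjusted p under 0.05, 4 members had a higher mean with OHT+dox than with OHT and 1 had a lower mean. The differences of the exosome core ran from 0.03 to 0.35 on the log2 scale, at a median of 0.14, beside -0.002 for all genes. All 9 were positive, but the subunits were measured in the same libraries, so their shared sign is not 9 separate results. The largest differences were those of Exosc1 (0.35, standard error 0.13, adjusted p = 0.0884) and, among the nucleases, Dis3 (0.29, standard error 0.11, adjusted p = 0.128). Under the permissive setting 4 members passed as higher (Exosc1, Exosc2, Dis3 and Dcp2) and 3 as lower (Cnot3, Dcp1a and Xrn1). Over all 12363 genes that setting gave 1192 higher and 1168 lower. The interaction asks whether OHT+dox departs from what the OHT and dox effects would add up to. None of the 35 genes passed its Wald test and none had an unadjusted p under 0.05. Over all genes none passed it either, and 133 had an unadjusted p under 0.05. The standard deviation of its z-values, 0.696 over all genes, lies below 1, so this test was conservative and says little about single members.

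**Figure D3:**
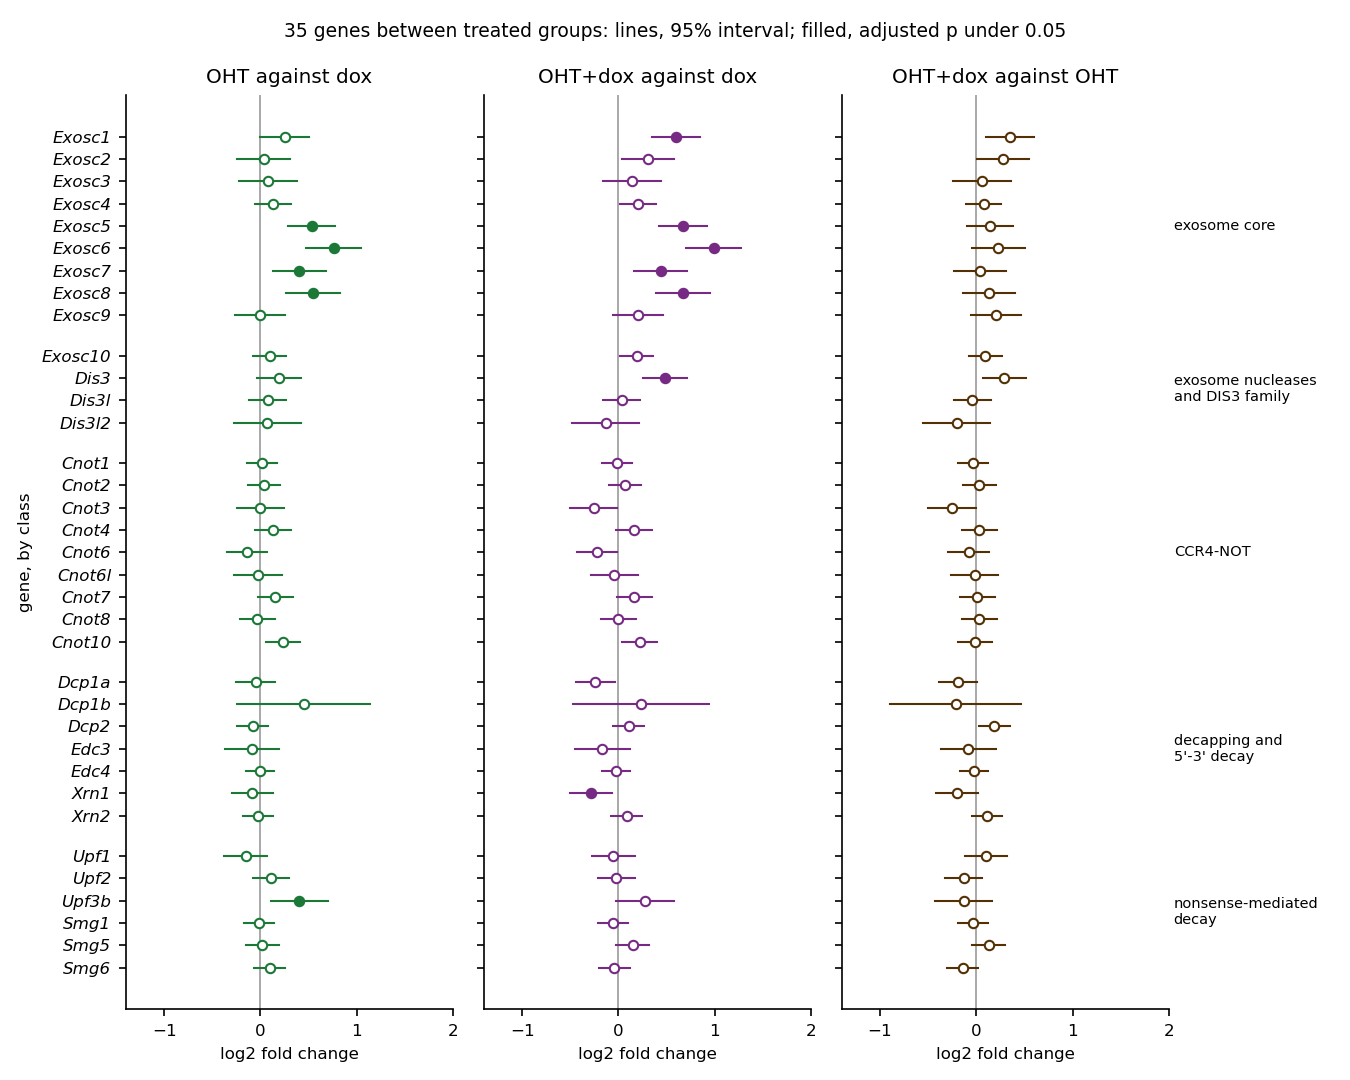
Log2 fold change between treated groups (x axes) of the 35 genes, by class (rows): OHT against dox, OHT+dox against dox, and OHT+dox against OHT. Lines are 95% intervals and filled points passed at an adjusted p under 0.05; 5 and 7 points are filled in the first and second panel and none in the third.

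Other genes of the same pathways were counted from lists of cofactors and regulators. Of 14 cofactors of the exosome, 5 rose in the OHT group, 1 in the dox group and 7 in the OHT+dox group, where 1 fell. The shares of all genes that rose in these groups were 12.6%, 6.21% and 20.6%, so the single gene of the dox group is near the background. Their medians in this order were 0.12, 0.11 and 0.23. The leading genes with both were Mphosph6, an exosome partner in the maturation of 5.8S ribosomal RNA (0.69, standard error 0.18, adjusted p = 0.000686), and Ttc37, the scaffold of the cytoplasmic Ski complex (0.57, standard error 0.09, adjusted p = 1.23e-09). The gene that fell was Skiv2l, the helicase of that same Ski complex (-0.21, standard error 0.08, adjusted p = 0.0225).

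The wider sets of deadenylation and decapping genes were mixed. Of 14 other deadenylation genes, 4 rose and 4 fell with both treatments, against 4 and 1 with OHT and 1 and 2 with dox, and the median with both was 0.07. With OHT 28.6% of the list rose and 7.14% fell, beside 12.6% and 8.87% of all genes. The dox shares, 7.14% and 14.3%, stood beside 6.21% and 4.51%. With both treatments 28.6% of the list rose and as many fell, beside 20.6% and 19.0% of all genes. Pde12, a poly(A)-specific phosphodiesterase of mitochondria, reached 0.90 (standard error 0.12) and Pabpc4, a poly(A)-binding protein, 0.73 (standard error 0.09). All 4 that fell encode antiproliferative proteins of the BTG/TOB family, which bind the Caf1 deadenylases. Btg2 was at -0.81 (standard error 0.11) and Tob1 at -0.59 (standard error 0.13), and the others were Btg1 and Tob2. Of 17 decapping activators and scavengers, 6 rose and 3 fell with both, 4 rose and none fell with OHT, and none was called with dox, at a median of -0.06 with both. Of all genes, 12.6% rose and 8.87% fell with OHT, where 23.5% of the list rose, and 6.21% rose and 4.51% fell with dox. With both, 35.3% of the list was higher and 17.6% lower, beside the same 20.6% and 19.0%. The 6 that rose were Lsm1, Lsm2, Lsm4, Lsm6, Lsm7 and Eif4enif1. Of these Lsm7 (0.77, standard error 0.14) and Lsm6 (0.77, standard error 0.12) rose most, and both are shared by the cytoplasmic Lsm ring of decapping and the nuclear Lsm ring of the U6 small nuclear RNA. Pnrc1 was at -0.56 (standard error 0.11) and Nudt16, a second decapping enzyme, at -0.45 (standard error 0.15).

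Of 16 other genes of nonsense-mediated decay, 5 rose in the OHT group, 3 in the dox group and 8 in the OHT+dox group, where the median was 0.34. None was called lower in these comparisons. The shares of the list that rose, in this order, were 31.25%, 18.75% and 50%, beside 12.6%, 6.21% and 20.6% of all genes. The leading genes with both were Magohb, of the exon junction complex (0.83, standard error 0.33, adjusted p = 0.0345), and Ncbp1, the large subunit of the nuclear cap-binding complex (0.70, standard error 0.10, adjusted p = 1.39e-10). The release factor genes Gspt1 and Etf1, which also serve translation termination at normal stop codons, were among the 8. Of 17 factors that direct AU-rich or microRNA-targeted mRNAs to decay, 3 rose and 6 fell with both, 1 rose and 3 fell with OHT, and 1 fell with dox, at a median of -0.16 with both. With OHT 5.88% of this list rose and 17.6% fell, beside 12.6% and 8.87% of all genes. With dox 5.88% fell, beside 4.51% of all genes. With both treatments 17.6% of this list rose and 35.3% fell, beside 20.6% and 19.0% of all genes. Zfp36l1 (-0.87, standard error 0.11, adjusted p = 1.74e-13) and Zfp36 (-0.84, standard error 0.15, adjusted p = 1.07e-07), which bind AU-rich elements and recruit CCR4-NOT, fell most. Hnrnpd was at 0.49 (standard error 0.14) and the reader of methylated adenosine Ythdf2 at 0.37 (standard error 0.08).

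**Figure D4:**
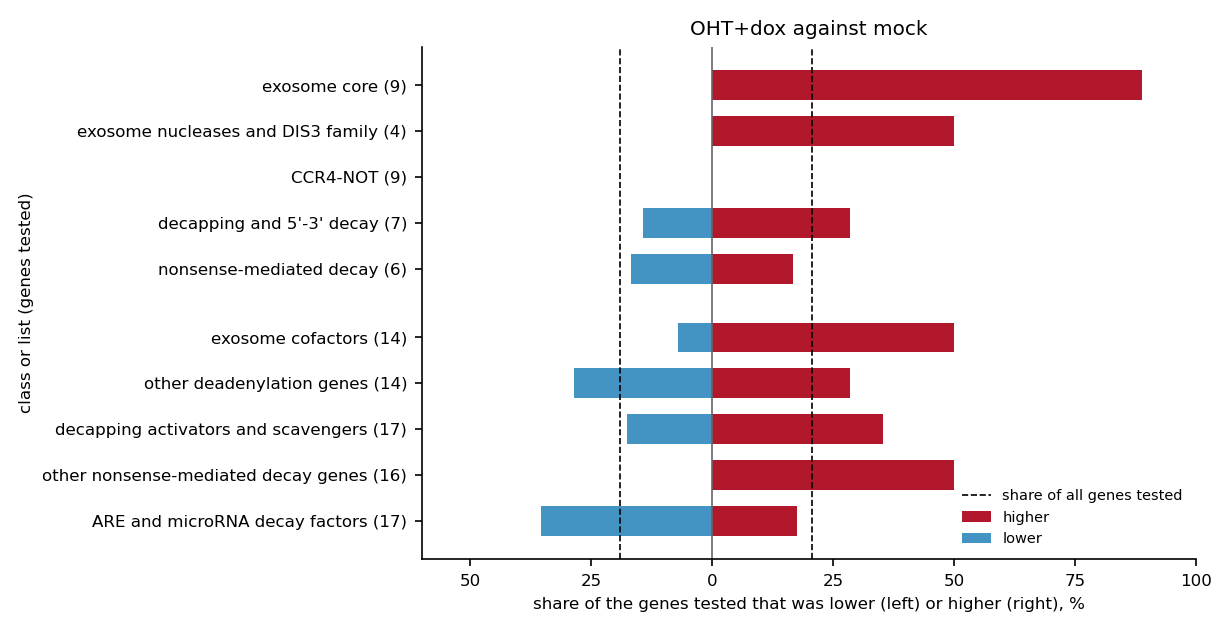
Share of the genes tested (x axis, %) that rose (right) or fell (left) with OHT+dox against mock, for the 5 classes above and 5 lists of other decay genes (rows, number tested in brackets). Dashed lines mark the shares of all 12363 genes, 20.6% and 19.0%; the exosome core reaches 88.9% higher, CCR4-NOT has no bar, and the factors of AU-rich and microRNA-directed decay lean to the left.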

How the data were processed

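RNA of 12 libraries in 4 groups was sequenced after TruSeq v2 preparation without poly(A) selection and without strand. The submitters' processing notes credit the authors with TopHat2 2.0.8, mm9, SAMtools, featureCounts 1.4.5-p1 and DESeq2, and the sources used here do not give the annotation. The deposited table holds, for each of 3 comparisons with mock, the authors' mean signal (counts divided by size factors, averaged over 6 libraries), their log2 fold change shrunken toward 0, their adjusted p-value and a Y or N call. The authors' calls were not used, and their fold changes and p-values are not printed.

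The members and lists were chosen with earlier results of these data known. The Benjamini-Hochberg adjustment was undone, the standard error taken as fold over z, and the shrinkage removed with prior standard deviations of 0.447 (OHT), 0.337 (dox) and 0.62 (OHT+dox), which gave group means and a dispersion per gene (mean over comparisons). The standard error was not recovered above an unadjusted p of 0.9. The mock means of the OHT and dox comparisons then lay a median log2 distance of 0.000617 and 0.000216 from those of OHT+dox. Of 21671 rows, 4 with repeated symbols were dropped, and 12363 genes were tested in 6 comparisons by Wald tests in Python 3.11.15 with SciPy 1.17.1. The recovery of fold changes was tested on counts simulated from the recovered means and dispersions. The simulated fit was given these dispersions, so neither they nor the standard errors were tested. Every member is named; full statistics go to the 3 members of each class that changed most with OHT+dox and to paralog pairs, and of each list the 2 called genes that changed most in each direction are named, with other genes named after their values were seen. Alternatives were each comparison's own standard error, a fold minimum, a count minimum, equal sums, other priors and scaled standard errors. Promoter windows are from RefSeq.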

Additional observations from a re-analysis of the deposited data

How the results depend on the processing

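No paired analysis was possible because the table holds no value per library, and for the same reason no library could be left out. The shared dispersion averages the spread of all groups, and precision is limited by 3 libraries per group. Requiring an absolute log2 fold change above 0.5 as well left 7 members higher and 0 lower with OHT+dox, 0 lower with dox, 0 lower in OHT+dox against dox and 3 higher in OHT against dox. With a prior standard deviation 10% smaller, 0 members were lower in OHT+dox against dox. The permissive setting, with standard errors multiplied by 0.696, gave 13 members higher and 1 lower with OHT, 2 lower with dox, 5 lower with both, 4 higher and 3 lower in OHT+dox against OHT, 14 higher and 4 lower in OHT+dox against dox, and 9 higher in OHT against dox. Over all genes it also raised the calls by more than 1.5 times, from 1561 to 2485 higher and 1097 to 2402 lower with OHT, 768 to 1737 and 557 to 1732 with dox, 323 to 1192 and 266 to 1168 in OHT+dox against OHT, 1557 to 2579 and 1095 to 2340 in OHT+dox against dox, and 1067 to 2214 and 928 to 1775 in OHT against dox. The fold minimum lowered them to 781 and 370 with OHT, 299 and 193 with dox, 1333 and 1203 with both (from 2547 and 2352), 126 and 111, 698 and 436, and 526 and 386 in the same order of direct comparisons. No class median moved by more than the median standard error of the genes in the class, and no called gene changed direction under any alternative run. Scaling the groups to equal sums called 2 further member results (Dcp1a with both and Cnot10 in OHT against dox), the count minimum of 50 called 1 (Exosc4 with OHT), each comparison's own standard error called 1 (Dcp1a with both), a 10% larger prior changed none, and leaving out the 106 genes without a recovered dispersion, chosen after seeing the data, changed none.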

Other observations

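Ribonucleases outside these complexes were also counted, from a list drawn up after the members' values had been seen. Of 17 such genes, 14 could be tested. With OHT 4 were higher and 1 lower, with dox 1 was higher, and with both 5 were higher and none lower (Wald test, no gene of the list had a lower mean at an unadjusted p under 0.05). Of all genes tested, 12.6% were higher and 8.87% lower with OHT, 6.21% higher with dox, and 20.6% higher and 19.0% lower with both, so the single calls, 7.14% of the list, are near the background. The median log2 fold change with both was 0.21. Pnpt1, the mitochondrial polynucleotide phosphorylase, and Supv3l1, the helicase that works with it, were at 0.66 (standard error 0.11) and 0.58 (standard error 0.13) with both, and at 0.12 (standard error 0.12) and 0.14 (standard error 0.13) with dox. Eri1, an exonuclease that trims 5.8S ribosomal RNA and acts on histone mRNA, and Isg20l2, which acts in ribosome biogenesis, were each at 0.61 with both. The gene that was lower with OHT was Isg20, an interferon-induced exonuclease, at -0.51 (standard error 0.19), and it was at 0.29 (standard error 0.19) with dox.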
